A study of Mus musculus with 18 samples.

Results

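The keratins described here are 10 genes, Krt5, Krt14, Krt15, Krt17, Krt6a, Krt8, Krt18, Krt19, Krt7 and Krt23, taken by symbol from the 55450 genes of the count file. All 10 were found once each, and all 10 passed the filter on low counts. They were measured by RNA sequencing in 18 female mice, 1 library per mouse. Trp53 carried loxP sites (fl/fl) in all tumor models, and Brca1 in those with B1 in their names below. Cre recombinase came from the adenovirus Ad5-CMV-Cre, delivered to the ducts of adult females. Its CMV promoter is not specific to a cell type. The T121 transgene (TgK18GT121), a part of the SV40 large T antigen that inactivates pRb, p107 and p130, was switched on by the same Cre and is driven by the keratin 18 promoter. The first group, B1/P/Rbf, held 5 tumors of the genotype Brca1 fl/fl, Trp53 fl/fl, TgK18GT121 Tg/+. The second, B1/P, held 5 tumors with Brca1 fl/fl and Trp53 fl/fl and without the transgene. The third, P/Rbf, held 5 tumors with Trp53 fl/fl and TgK18GT121 Tg/+ and without floxed Brca1. The controls were 3 normal mammary glands of wild type mice. All groups were of the C57Bl/6 strain, all tumors shared the Trp53 alleles and the virus, and the sources used here do not say whether the glands had received virus.

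Keratins are the intermediate filament proteins of epithelial cells. A filament is built from pairs of 1 type I and 1 type II chain. Krt5, Krt6a, Krt7 and Krt8 are type II keratins, and Krt14, Krt15, Krt17, Krt18, Krt19 and Krt23 are type I. In the mammary duct the outer basal or myoepithelial cells carry the pair keratin 5 and keratin 14, and the inner luminal cells carry keratin 8 and keratin 18, with keratin 19 and keratin 7. Keratin 15 is a keratin of basal cells in stratified epithelia, and keratins 6 and 17 appear in skin appendages and in stressed or wounded epithelium. Pathologists use these proteins to assign breast tumors to luminal or basal-like classes.

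The type II members lie together on chromosome 15 and the type I members on chromosome 11, with the exception of Krt18, a type I gene that lies beside Krt8 on chromosome 15. In build GRCm38, Krt8 spans 101996698 to 102004482 on the minus strand, and Krt18 spans 102028180 to 102032027 on the plus strand. The promoter sequences are shown for Krt18, whose promoter type drives T121, for its neighbor and partner Krt8, for the basal gene Krt5 and for Krt23, the member that fell most between tumor models. Each is 300 bases of RefSeq (GRCm38.p6), from 250 bases before the RefSeq start to 50 after it, written 5′ to 3′ on the gene's strand. Capitals mark matches, on either strand, to 7 short motifs, which are the TATA box (TATAAA), the CCAAT box, the GC box (GGGCGG), the AP-1 site (TGANTCA), the forkhead site (TGTTTAC), the GATA site (AGATAA) and the E-box CAGGTG.

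Krt18 promoter, chr15:102027966-102028265, plus strand: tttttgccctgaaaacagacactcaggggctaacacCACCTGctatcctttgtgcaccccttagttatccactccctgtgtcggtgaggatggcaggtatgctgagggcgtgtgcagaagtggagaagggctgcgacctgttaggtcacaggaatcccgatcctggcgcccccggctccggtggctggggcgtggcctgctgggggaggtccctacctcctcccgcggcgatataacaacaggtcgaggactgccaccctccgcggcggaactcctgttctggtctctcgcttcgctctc
Krt8 promoter, chr15:102004293-102004592, minus strand: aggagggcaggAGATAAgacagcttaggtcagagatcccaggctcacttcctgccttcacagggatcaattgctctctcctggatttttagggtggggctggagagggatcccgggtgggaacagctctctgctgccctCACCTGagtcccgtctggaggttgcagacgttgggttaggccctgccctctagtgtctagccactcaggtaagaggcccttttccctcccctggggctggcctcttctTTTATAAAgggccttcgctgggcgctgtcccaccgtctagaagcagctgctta
Krt5 promoter, chr15:101712856-101713155, minus strand: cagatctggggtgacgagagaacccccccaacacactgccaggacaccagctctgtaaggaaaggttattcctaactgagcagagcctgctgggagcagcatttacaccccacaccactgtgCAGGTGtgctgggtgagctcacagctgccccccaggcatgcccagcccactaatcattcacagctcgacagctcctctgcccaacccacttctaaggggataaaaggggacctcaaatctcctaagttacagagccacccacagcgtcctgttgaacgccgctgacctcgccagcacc
Krt23 promoter, chr11:99493071-99493370, minus strand: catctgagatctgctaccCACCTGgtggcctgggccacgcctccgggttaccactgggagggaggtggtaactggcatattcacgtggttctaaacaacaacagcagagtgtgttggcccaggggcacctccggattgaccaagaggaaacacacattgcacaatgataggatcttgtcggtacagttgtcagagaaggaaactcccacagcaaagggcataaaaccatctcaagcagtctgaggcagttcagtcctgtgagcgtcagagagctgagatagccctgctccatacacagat

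Of the 10 members, 6 had a promoter in the RefSeq table (Krt5, Krt14, Krt8, Krt18, Krt7 and Krt23). The windows of Krt14 and Krt7 begin from a start 1518 and 1360 bases inside the GENCODE gene and are not shown. The RefSeq starts of Krt8, Krt18 and Krt23 also lie inside the GENCODE gene, by 140, 36 and 17 bases. That of Krt5 lies just outside it (-7). Positions below count from the RefSeq start, so in Krt8 a match less than 140 bases before it lies inside the gene. The E-box CAGGTG, to which ZEB and SNAI repressors bind, was the motif found in most of the windows. It occurred in 5 of the 6 windows, all but that of Krt14, and in 20.2% of all 32851 promoter windows of the same length. In Krt18 its first base lies at position -214 from the RefSeq start, in Krt8 at -111, in Krt5 at -128 and in Krt23 at -232. The GATA letters AGATAA occurred in the Krt8 window, at position -239, and in 11.2% of all windows. TATAAA also occurred in the Krt8 window, on both strands in overlapping positions (first bases at -3 and -1), and in 13.6% of all windows. GGGCGG occurred in the Krt7 window and in 35.7% of all. The letters of the CCAAT box, the AP-1 site and the forkhead site were not in the 6 windows, and are in 37.4%, 7.81% and 3.65% of all windows. GGGCGG and AGATAA, like CAGGTG, overlap no other motif match in these windows. These matches describe letters only and no binding was measured.

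Summed expected counts of a library lay between 27661173 and 37794889. Levels are counts relative to library size (CPM) after scaling between libraries by edgeR's TMM factors, and log2 fold changes, their standard errors (SE) and Benjamini-Hochberg adjusted p-values come from 1 edgeR quasi-likelihood fit of all 18 samples. A gene is called when its adjusted p is 0.05 or less over the 19186 genes tested. Trp53 had 54.4 to 71.8 CPM in the glands and 6.75 to 24.3 CPM in the 15 tumors, without overlap. Brca1 had 8.13 to 27.9 CPM in B1/P, 21.1 to 45.0 in B1/P/Rbf and 44.9 to 116.2 in P/Rbf tumors, against 4.61 to 5.99 in the glands. The highest of the B1/P/Rbf tumors, 45.0 CPM in 208863, lies within the P/Rbf range. Without that tumor Krt18 and Krt23 were still the keratins called against B1/P, and 0 were called against P/Rbf. Shares of all genes in those fits are not given here, and with all samples they were 16.7% and 0.281%. The glands also held 23357 to 29901 CPM summed over 8 adipocyte genes and 24290 to 48171 over 7 skeletal muscle genes, where the highest tumors had 277.4 and 619.4. In such bulk tissue, fewer cells of a type and less RNA per cell cannot be told apart. The labels name 1 mouse per library, so replicates are mice. In the text, tumors are listed in the order 208855, 208857, 208863, 209490 and 210906 for B1/P/Rbf, 225068, 225070, 246361, 255232 and 248662 for B1/P, and 287842, 287845, 290860, 287822 and 290845 for P/Rbf, and glands in the order 330154, 330155 and 330156.

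The basal pair was high in most B1/P tumors and low in most tumors with T121, but single tumors of each model broke the pattern, and none of the differences in Krt5 between tumor models passed the edgeR test. Krt5, the type II chain of basal cells, had 435.8, 0.0, 823.7, 334.3 and 854.3 CPM in B1/P tumors. It had 0.624, 0.027, 11.7, 42.9 and 16.9 CPM in B1/P/Rbf tumors and 0.316, 6.43, 398.1, 4.74 and 2.55 CPM in P/Rbf tumors. The glands had 50, 14.0 and 18.1 CPM. Thus 4 of 5 B1/P tumors lay above all glands and all B1/P/Rbf tumors, while tumor 225070 had no Krt5 count at all, which allows up to 0.0893 CPM. With 225070 set aside, 290860 was the P/Rbf tumor that reached the range of the B1/P tumors. Krt5 in B1/P/Rbf against B1/P had a log2 fold change of -5.08 (SE 1.98, adjusted p = 0.0868), and without tumor 225070 it was -5.41 (adjusted p = 0.0449). DESeq2 called this fall (-5.09, adjusted p = 0.0138), and with all samples no other setting did, with an adjusted p of up to 0.424 (limma-voom). P/Rbf against B1/P gave -2.57 (SE 1.76, adjusted p = 0.314), and without tumor 290860 it gave -7.12 (adjusted p = 0.0208). About 5.18% of the 75-base windows of Krt5 transcripts also occur in Krt6a, Krt6b or Gm5478 transcripts.

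Krt14, the type I partner of Krt5 and a basal marker stained in the study, was expressed in every B1/P tumor. It had 453.0, 102.0, 584.1, 269.0 and 605.4 CPM there, and 38.8, 15.7 and 15.9 CPM in the glands, without overlap. B1/P/Rbf tumors had 25.0, 1.54, 64.4, 163.1 and 45.3 CPM, and 4 of these 5 lay below every B1/P tumor. P/Rbf tumors divided into 287845 and 290860, with 633.0 and 624.8 CPM, above all B1/P tumors, and the other 3, with 22.2, 74.5 and 46.5 CPM, below all of them. Krt14 was called higher in B1/P tumors than in glands, by 4.10 on the log2 scale (SE 1.32, adjusted p = 0.0241), and in P/Rbf tumors than in glands, by 3.58 (SE 1.28, adjusted p = 0.0366). Neither call held without gland 330154, 330155 or 330156 (adjusted p from 0.0536 to 0.0975 for B1/P and from 0.0669 to 0.123 for P/Rbf), and the second was also lost without tumor 287845 (0.0675) or 290860 (0.0695) and in 3 of 7 other settings (up to 0.130). For B1/P/Rbf against B1/P the Krt14 log2 fold change was -2.75 (SE 1.00, adjusted p = 0.0676), and without B1/P/Rbf tumor 209490 it was -3.56 (adjusted p = 0.0381). For P/Rbf against B1/P it was -0.52 (SE 0.94, adjusted p = 0.727).

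Krt15 varied more within the models than between them. B1/P/Rbf tumors had 2217.6, 47.5, 29.7, 545.9 and 65.2 CPM, so the highest held 74.7 times the level of the lowest. In B1/P tumors it had 30, 12.8, 63.2, 9.23 and 552.6 CPM, and in P/Rbf tumors 11.2, 3.06, 381.9, 14.6 and 16.4 CPM. In each model 1 or 2 tumors stood far above the rest, and they were 208855 and 209490, 248662, and 290860. The glands had 11.0, 2.65 and 2.78 CPM, below all B1/P/Rbf tumors. That comparison was called (log2 fold change 6.73, SE 2.28, adjusted p = 0.0284). The call was lost without tumor 208855 (4.97, adjusted p = 0.0593) or without gland 330154, 330155 or 330156 (adjusted p from 0.0622 to 0.104), and with limma-voom (5.93, adjusted p = 0.0700). With a term for 2 sets of libraries the log2 fold change was 9.72 (adjusted p = 0.0279). No comparison between tumor models was called for Krt15.

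Krt17 and Krt6a, keratins of stressed epithelium, were low in all 3 glands. Krt17 had 16.7, 6.77 and 9.78 CPM in the glands and 227.3, 29.5, 333.8, 102.9 and 228.4 CPM in B1/P tumors, without overlap. B1/P/Rbf tumors, with 48.5, 17.5, 74.6, 42.1 and 227.7 CPM, also lay above the glands, whereas P/Rbf tumors spread from 2.87 CPM in 287822 to 249.6 CPM in 290860. In the edgeR fit Krt17 was called against glands in B1/P tumors only (log2 fold change 4.06, SE 1.32, adjusted p = 0.0249), and leaving out gland 330154, 330155 or 330156 raised the adjusted p to between 0.0631 and 0.0941, and a term for 2 sets of libraries to 0.0587. Other settings also called it in B1/P/Rbf against glands, namely DESeq2 (adjusted p = 0.0137), no TMM (0.0478) and the compared groups alone (0.0196), and in P/Rbf with DESeq2 (0.0319). Its log2 fold change in P/Rbf against B1/P was -1.49 (SE 0.95, adjusted p = 0.277), and -3.24 (adjusted p = 0.0216) without tumor 290860.

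Krt6a was the member called against the glands in all 3 models. It had 3.95, 6.32 and 3.08 CPM in the glands. B1/P/Rbf tumors had 171.7, 124.3, 491.3, 172.2 and 92.0 CPM, and P/Rbf tumors had 33.8, 470.3, 1196.4, 109.9 and 468.9 CPM, all above the glands. B1/P tumors had 44.9, 1.84, 624.9, 19.8 and 240.8 CPM, of which 225070 alone was below all glands. The log2 fold change was 5.56 in B1/P/Rbf (SE 1.58, adjusted p = 0.0111), 5.39 in B1/P (SE 1.57, adjusted p = 0.0140) and 6.68 in P/Rbf (SE 1.67, adjusted p = 0.00478). Without gland 330156 the adjusted p was 0.0534 for B1/P/Rbf and 0.0649 for B1/P, and without gland 330154 it was 0.0588 for B1/P. With limma-voom these were 0.0552 and 0.193, and the library-set term gave 0.109 for B1/P/Rbf. The call in P/Rbf held in every other setting and without any single sample. Between models Krt6a was not called (adjusted p from 0.399 to 0.932). Of its 75-base windows, 38.6% also occur in transcripts of Krt6b, Gm5478 or Krt5, so the division of counts among these genes is uncertain.

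**Figure D1:**
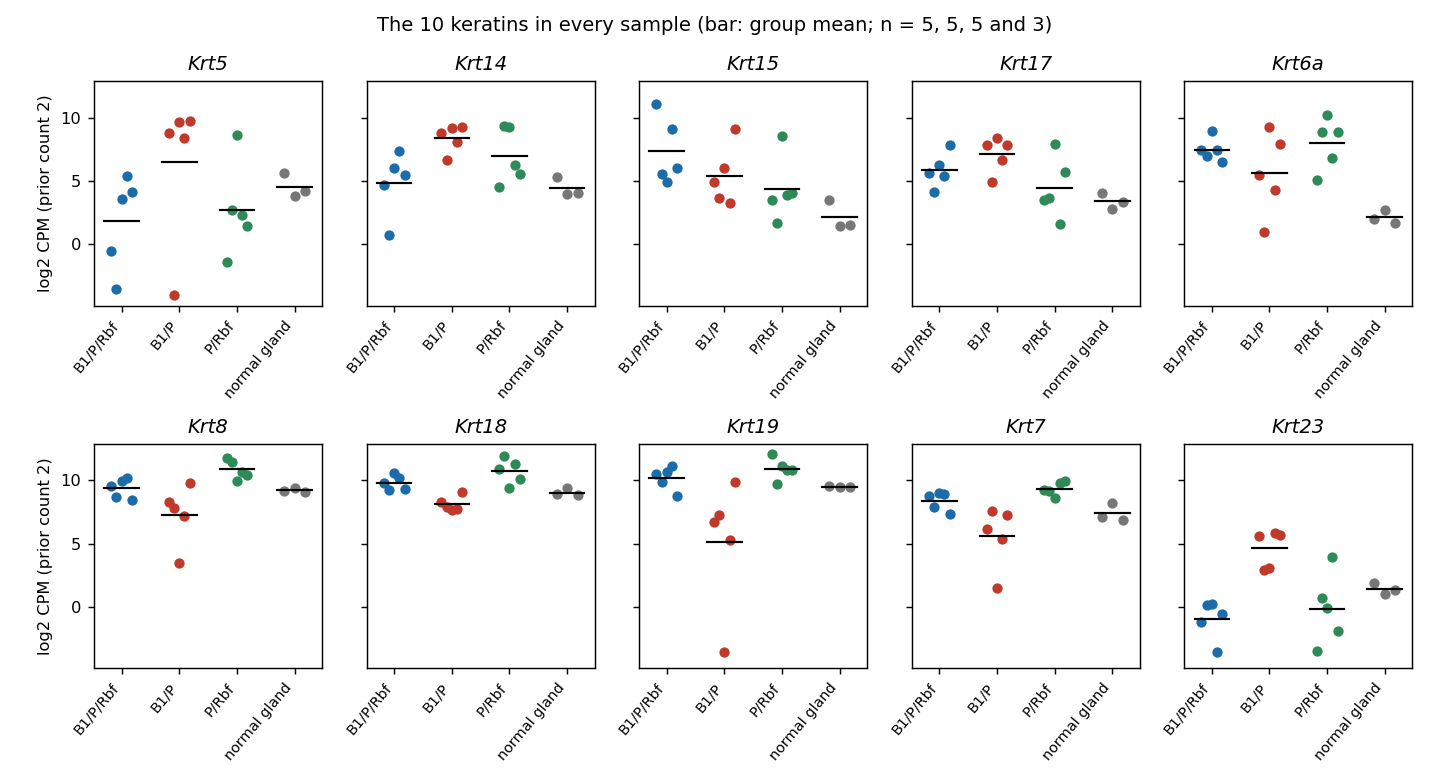
Each point is 1 sample, the horizontal axis gives the group, the vertical axis the log2 CPM with a prior count of 2, and the bar is the mean over 5, 5, 5 and 3 samples. The upper row holds the basal and stress keratins, where the spread within a tumor model often exceeds the distance between models, and the lower row the luminal keratins and Krt23, where B1/P tumor 246361 lies far below the others for Krt8, Krt19 and Krt7 but not for Krt18.

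Mean levels of the 4 luminal keratins were higher in both T121 models than in B1/P tumors, and Krt18 was the one called in both. Krt18, the type I luminal chain, had 898.4, 614.1, 1515.1, 1176.8 and 637.0 CPM in B1/P/Rbf tumors. It had 1922.4, 3817.4, 661.6, 2552.8 and 1114.9 CPM in P/Rbf tumors and 321.6, 232.8, 203.8, 207.4 and 542.5 CPM in B1/P tumors. All 10 T121 tumors were above all 5 B1/P tumors. The glands, with 475.6, 670.5 and 450.9 CPM, overlapped both B1/P/Rbf and B1/P tumors. Krt18 rose 3.21-fold in B1/P/Rbf against B1/P (log2 fold change 1.68, SE 0.42, adjusted p = 0.0128) and 6.68-fold in P/Rbf against B1/P (2.74, SE 0.44, adjusted p = 0.000952). It also rose in P/Rbf tumors against glands (1.92, SE 0.52, adjusted p = 0.00771). These 3 calls held when any single sample was left out and in all 7 other settings of the fit. The methods describe the TgK18GT121 mice as BAC (bacterial artificial chromosome) transgenic. How much of the Krt18 gene and its surroundings the transgene carries is not given in the sources used here, so Krt18 counts from the transgene and from the endogenous gene cannot be told apart.

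Krt8, the type II partner of Krt18, had 770.1, 413.3, 977.2, 1170.2 and 349.2 CPM in B1/P/Rbf tumors and 3536.3, 2867.7, 1009.8, 1646.6 and 1383.7 CPM in P/Rbf tumors. B1/P tumors had 307.5, 229.7, 10.7, 145.2 and 883.2 CPM, and the glands 576.4, 668.6 and 538.8 CPM. All P/Rbf tumors lay above all B1/P tumors and all glands, while B1/P/Rbf tumors overlapped both. Krt8 rose 6.63-fold in P/Rbf against B1/P (log2 fold change 2.73, SE 0.72, adjusted p = 0.0148), a call that was lost in a fit of the 2 compared groups alone (adjusted p = 0.0644) and with a term for 2 sets of libraries (2.02, adjusted p = 0.190). In B1/P/Rbf against B1/P the log2 fold change was 1.22 (SE 0.68, adjusted p = 0.236), and without B1/P tumor 248662 it was 2.08 (adjusted p = 0.0456). The pseudogene Krt8-ps shares 22% of the Krt8 windows and was counted at no more than 2.88 CPM in any sample. As Krt8 lies beside Krt18 and the extent of the transgene is not given, Krt8 counts from the transgene cannot be told apart either.

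Krt19, a type I luminal keratin, ranged over the whole scale in B1/P tumors, which had 103.8, 157.2, 0.0251, 39.8 and 940.7 CPM. The value in 246361 is 1 count. In B1/P/Rbf tumors Krt19 had 1424.8, 932.5, 1591.6, 2220.3 and 440.6 CPM, all above 4 of the 5 B1/P tumors and overlapping with 248662. The 5 P/Rbf tumors had 4393.1, 827.5, 2310.9, 1798.3 and 1777.1 CPM, all above the glands, which lay between 716.6 and 741.1 CPM. P/Rbf against B1/P gave a log2 fold change of 3.16 (SE 1.14, adjusted p = 0.0605), which became 4.88 (adjusted p = 0.0111) without B1/P tumor 248662 and 2.84 (adjusted p = 0.0225) without 246361. Over the other settings its adjusted p was lowest with DESeq2 (0.00981) and highest under the library-set term (0.375). The log2 fold change was 3.14 with DESeq2, 2.18 with the library-set term and 6.35 with limma-voom (adjusted p = 0.0213). For B1/P/Rbf against B1/P the Krt19 log2 fold change was 2.41 (SE 1.11, adjusted p = 0.145), and 4.13 (adjusted p = 0.0226) without tumor 248662. Over the other settings that adjusted p ran from 0.0347 with limma-voom (log2 fold change 5.70) to 0.249 in a fit of the compared groups alone (2.44).

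Krt7, a type II keratin of simple and glandular epithelium, had 614.5, 573.6, 385.9, 906.5 and 986.7 CPM in P/Rbf tumors. B1/P tumors had 72.7, 190.9, 2.71, 41.7 and 153.5 CPM, and B1/P/Rbf tumors 439.3, 239.7, 517.4, 486.6 and 161.4 CPM. All P/Rbf tumors and 4 of 5 B1/P/Rbf tumors exceeded all B1/P tumors. The glands had 136.5, 293.6 and 117.6 CPM. Krt7 rose 7.51-fold in P/Rbf against B1/P (log2 fold change 2.91, SE 0.70, adjusted p = 0.00958), and the adjusted p was 0.0979 with the term for library sets. In B1/P/Rbf against B1/P the log2 fold change of 2.00 (SE 0.68) had an adjusted p of 0.0524, with a range from 0.0286 to 0.107 when single samples were left out and from 0.0137 to 0.122 over the other settings.

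Krt23, a type I keratin known from glandular epithelium, went the opposite way to the luminal keratins. B1/P tumors had 47.6, 7.55, 8.47, 55.9 and 52.0 CPM. B1/P/Rbf tumors had 0.369, 1.05, 1.13, 0.0254 and 0.617 CPM, from 1 to 41 counts per tumor, and the glands 3.60, 1.96 and 2.51 CPM. All B1/P tumors were above all glands, and all B1/P/Rbf tumors were below all glands. Neither difference was called by edgeR (3.67, SE 1.47, adjusted p = 0.0629 in B1/P, and -2.07, SE 1.24, adjusted p = 0.202 in B1/P/Rbf). The rise in B1/P was called by DESeq2 (adjusted p = 0.0072), limma-voom (0.0296), without TMM (0.0417) and in the compared groups alone (0.00791). P/Rbf tumors had 0.0288, 1.58, 0.861, 15.5 and 0.204 CPM, and 287822 alone reached the B1/P range. Krt23 fell in B1/P/Rbf against B1/P (log2 fold change -5.74, SE 1.31, adjusted p = 0.00731), and the call held in the 6 other settings that tested it and without any single sample. P/Rbf against B1/P gave -3.24 (SE 1.16, adjusted p = 0.0589), and -5.67 (adjusted p = 0.00459) without tumor 287822. It gave -3.50 (adjusted p = 0.0475) without B1/P tumor 225070. The fall was also called by DESeq2 (-3.23, adjusted p = 0.00991) and by limma-voom (-4.57, adjusted p = 0.0126).

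The comparison of B1/P/Rbf with B1/P tumors sets tumors with and without the T121 transgene side by side, both with floxed Brca1 and Trp53 alleles. It called 2 of the 10 keratins, Krt18 higher and Krt23 lower, where 16.7% of all genes tested were called, 7.36% higher and 9.29% lower. The same 2 keratins were the ones without overlap between the groups, as were 10.5% of all genes. The count was 5 with DESeq2 (Krt5, Krt14, Krt18, Krt7 and Krt23) and 5 with limma-voom (Krt14, Krt18, Krt19, Krt7 and Krt23), where these tools called 23.0% and 16.0% of all genes. The comparison of P/Rbf with B1/P tumors, in which the models differ both in T121 and in Brca1, called 3 of 10, Krt18, Krt7 and Krt8, all higher, where 19.2% of all genes were called, 8.43% higher and 10.8% lower. These 3 did not overlap between the groups, as was true of 8.86% of all genes. The count was 5 with DESeq2 and with limma-voom, which both added Krt19 higher and Krt23 lower, where the tools called 26.2% and 16.5% of all genes. With the term for library sets 1 remained called, Krt18, where 10.5% of all genes were called, 3.22% higher. Without tumor 290860 the count was 5, in a fit whose share of all genes is not given here. The comparison of B1/P/Rbf with P/Rbf tumors, which by design differ in the floxed Brca1 alleles, called 0 of 10 with edgeR, where 0.281% of all genes were called, 0.219% higher and 0.0625% lower. No keratin was without overlap there, as were 3.02% of all genes. In that comparison 4 keratins had an unadjusted p under 0.05 (Krt14, Krt18, Krt8 and Krt23, all lower in B1/P/Rbf), as did 16.1% of all genes, 8.06% higher and 8.01% lower. DESeq2 and limma-voom also called 0 keratins, where they called 5.33% and 0.136% of all genes. Krt18 there had a log2 fold change of -1.06 (SE 0.42, adjusted p = 0.221) and Krt8 of -1.50 (SE 0.69, adjusted p = 0.292). With the library-set term they were -0.49 (adjusted p = 0.805) and -0.01 (adjusted p = 1.0). The B1/P/Rbf libraries all lie in the first set and the P/Rbf libraries all in the second, so set and genotype are separated there only through the B1/P tumors.

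Against the glands, each of the 10 keratins that was called in a tumor model was higher there. B1/P/Rbf tumors had 2 of 10 called (Krt15 and Krt6a), where 37.0% of all genes were called, 17.1% higher. B1/P tumors had 3 of 10 (Krt14, Krt17 and Krt6a), against 33.8% of all genes, 16.8% higher and 16.9% lower. P/Rbf tumors had 3 of 10 (Krt14, Krt18 and Krt6a), against 37.7%, 17.4% higher and 20.3% lower. The called shares of the members, 20%, 30% and 30%, are below those of all genes in either direction and above those of all genes called higher. Without overlap with the glands were 4 keratins in B1/P/Rbf (Krt15, Krt17 and Krt6a higher, Krt23 lower), 3 in B1/P (Krt14, Krt17 and Krt23, all higher) and 4 in P/Rbf (Krt6a, Krt8, Krt19 and Krt7, all higher), beside 50.5%, 41.4% and 46.5% of all genes. No luminal keratin differed from the glands by a call in B1/P/Rbf or B1/P tumors, with the adjusted p of Krt8, Krt18, Krt19 and Krt7 between 0.180 and 0.787. The Krt19 log2 fold change in B1/P against glands was -1.55 (SE 1.19, adjusted p = 0.329), and without tumor 248662 it was -3.27 (adjusted p = 0.0376). The count fell to 0 without gland 330156 for B1/P/Rbf and without gland 330154 or 330156 for B1/P, and was 2 to 3 for P/Rbf with single samples left out. Shares of all genes in those fits are not given here, so a wider loss of calls cannot be told from one of keratins. Gland 330154 had the highest Krt5, Krt14, Krt15 and Krt17 of the glands. It also had the highest level of 18 skin and hair follicle genes, with a mean log2 CPM of 0.79 against -3.02 and -3.03. No gene of the list was at 0 in it, and a gene without counts stands at -4.08 on this scale. All of the list but Tchh, Lor and Flg are keratins outside the 10, and 8 of the 18 passed the filter on low counts. The part of skin in the keratin levels of gland 330154 was not tested.

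**Figure D2:**
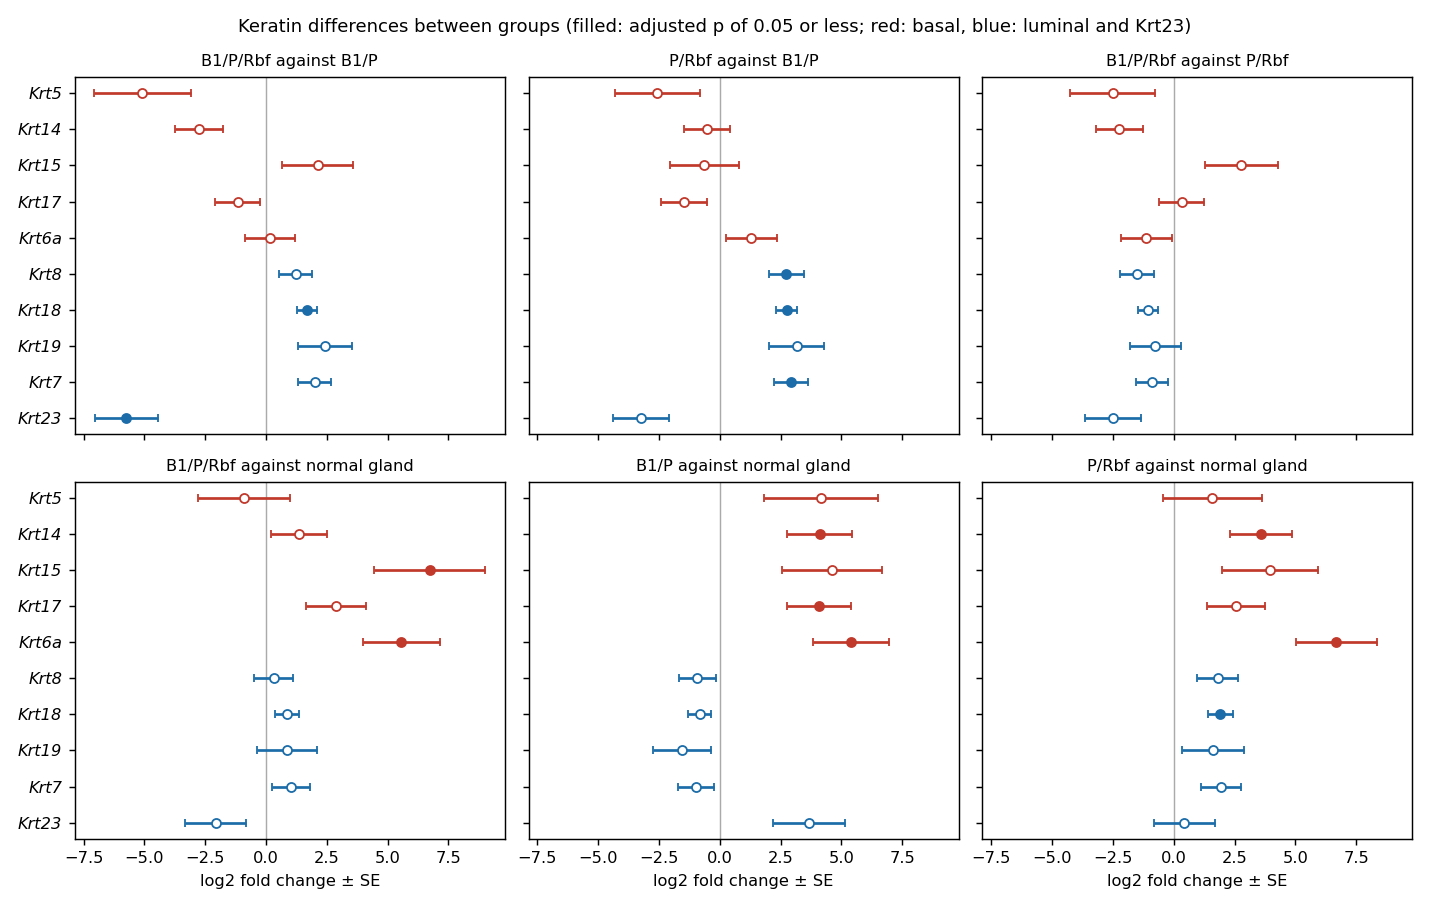
Each panel is 1 comparison, the horizontal axis is the log2 fold change with its SE from the edgeR fit, and filled points have an adjusted p of 0.05 or less. Luminal keratins lie to the right in both upper panels against B1/P, and in the lower panels the called keratins all lie to the right of 0.

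Set against transcript length, the keratins of a sample can be compared with each other. The level used for this is CPM per kilobase of the principal GENCODE transcript. In the glands Krt19 (461.2 ± 8.09, SD, n = 3), Krt18 (370.4 ± 83.7) and Krt8 (303.7 ± 34.1) led, and Krt5 and Krt14 were at 12.5 ± 8.97 and 13.8 ± 7.83. In P/Rbf tumors Krt19 (1410 ± 842, SD, n = 5), Krt18 (1401 ± 866) and Krt8 (1067 ± 545) led, and these 3 do not differ beyond their spread. In B1/P/Rbf tumors the order was Krt19 (839 ± 428), Krt18 (674 ± 266), Krt8 (376 ± 181) and Krt15 (342 ± 553). The Krt15 mean rests on tumor 208855, with 1304.5, and by its median of 38.3 Krt15 stood below Krt7 (107.3) and Krt6a (75.4). In B1/P tumors Krt14 (237.2 ± 126.6), Krt5 (222.9 ± 162.7), Krt18 (209.9 ± 99.4), Krt8 (161.0 ± 171.6) and Krt19 (157.5 ± 248.5) stood within their spread of each other. The Krt8 and Krt19 means rest on tumor 248662, with 451.1 and 596.9, and by median Krt17 (146.6) stood above Krt8 (117.3) and Krt19 (65.9).

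The 5 keratins Krt5, Krt14, Krt15, Krt17 and Krt6a together made up 56.7%, 16.9%, 89.0%, 57.4% and 46.9% of the length-scaled level of the 10 in B1/P tumors. They made up 41.3%, 6.84%, 10.8%, 15.5% and 21.6% in B1/P/Rbf tumors and 0.681%, 11.0%, 36.5%, 2.56% and 8.87% in P/Rbf tumors. The glands had 5.40%, 1.79% and 2.44%. Of the B1/P tumors, 225070 lay in the range of the T121 tumors, and the other 4 lay above all 10 of them. In B1/P/Rbf tumor 208855 the share of the 5 keratins was almost wholly Krt15, which alone made up 37.7%. Krt5 and Krt14 made up 0.00822% and 0.425% there. Krt6a was most of the share in B1/P/Rbf tumor 208863 (7.15%) and P/Rbf tumor 290845 (6.58%), and Krt14 in P/Rbf tumor 287845 (6.93%). The sum is thus not a measure of Krt5 and Krt14 alone. B1/P tumor 246361 had the largest share of the 5 keratins and almost no luminal keratin besides Krt18. Krt18 made up 10.1% there, against 0.390% for Krt8 and 0.00114% for Krt19. Type II chains made up 31.8% to 46.8% of the level in B1/P tumors, 16.7% to 28.1% in B1/P/Rbf tumors and 27.2% to 36.9% in P/Rbf tumors, and the first 2 of these ranges do not overlap.

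**Figure D3:**
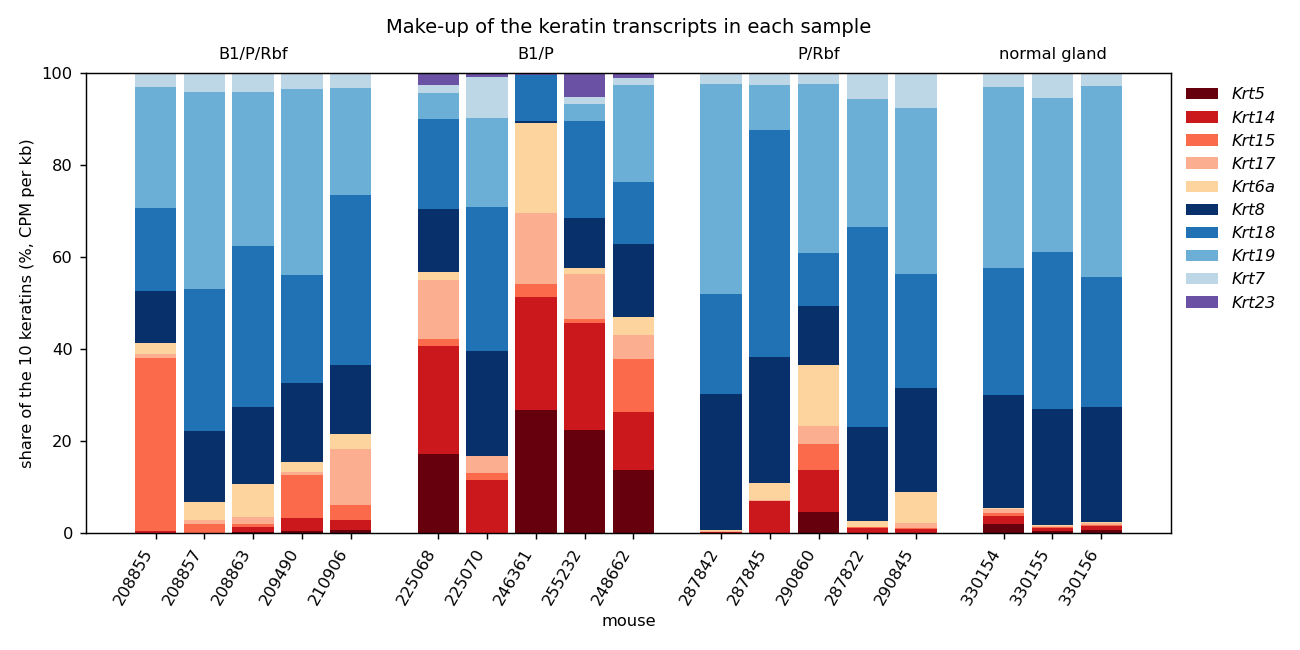
Each bar is 1 mouse, and the vertical axis is the percent of the summed CPM per kilobase of the 10 keratins, with the basal and stress keratins in red to yellow, the luminal keratins in blue and Krt23 in purple. The red to yellow part reaches 46.9% or more in 4 of 5 B1/P tumors and 89.0% in 246361, and stays at or below 5.40% in the glands.

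Partner chains did not keep step in every tumor. The log2 ratio of Krt8 to Krt18 within a sample lay between -0.87 and 0.88 in all samples but 1. The exception was B1/P tumor 246361, at -4.25, with 425 Krt8 counts and 8110 Krt18 counts. The log2 ratio of Krt5 to Krt14 was near 0 in the glands (0.36, -0.16 and 0.19) and in 4 B1/P tumors (-0.06, 0.50, 0.31 and 0.50). In B1/P tumor 225070, with 102.0 CPM of Krt14 and no Krt5 count, it was at most -10.16, taking 3 counts as the floor for Krt5. The ratio was below 0 in all 10 T121 tumors, with -5.19, -4.21, -2.46, -1.93 and -1.42 in B1/P/Rbf and -5.89, -6.61, -0.65, -3.96 and -4.16 in P/Rbf. Leaving aside tumor 225070, all T121 tumors were below all glands and all B1/P tumors in this ratio. In P/Rbf tumor 287845 Krt14 stood at 633.0 CPM beside 6.43 CPM of Krt5.

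The ratio of basal to luminal chains was read in 2 pairs. The log2 ratio of Krt14 to Krt18 was 0.49, -1.19, 1.52, 0.37 and 0.16 in B1/P tumors. It was -5.17, -8.59, -4.55, -2.85 and -3.81 in B1/P/Rbf tumors, all below all B1/P tumors. In P/Rbf tumors it was -6.43, -2.59, -0.08, -5.10 and -4.58, and 290860 overlapped the B1/P tumors. The glands had -3.61, -5.41 and -4.82, inside the range of both T121 models. The log2 ratio of Krt5 to Krt8 lay between -0.05 and 6.26 in 4 B1/P tumors, with a mean of 1.98, and at most -11.33 in tumor 225070 with the same floor. It averaged -7.58 ± 3.46 (SD, n = 5) in B1/P/Rbf, -8.16 ± 4.28 in P/Rbf and -4.66 ± 1.04 (n = 3) in the glands. No test was made of these ratios, as they combine members.

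**Figure D4:**
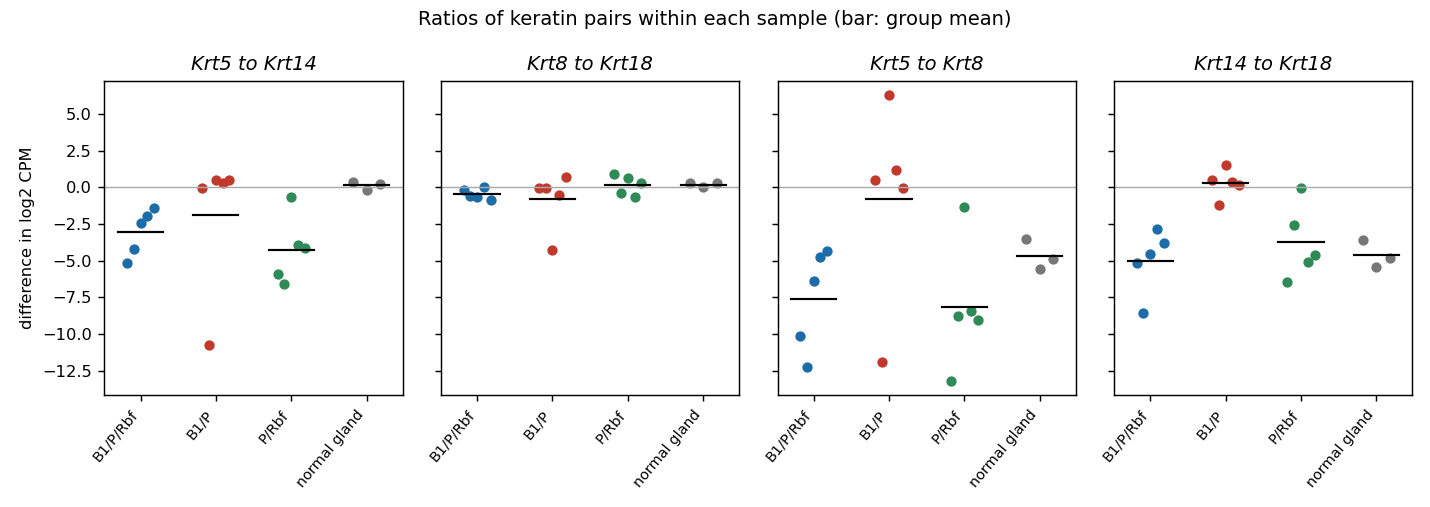
Each point is the difference in log2 CPM between the 2 named keratins in 1 sample, with the group on the horizontal axis and the group mean as a bar. The Krt5 ratios of B1/P tumor 225070, which had no Krt5 count, are drawn at a value set by the prior count. Krt8 to Krt18 stays near 0 except for B1/P tumor 246361 at -4.25, and Krt14 to Krt18 lies lower in all B1/P/Rbf tumors than in all B1/P tumors.

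The level of a keratin in bulk tissue moves with the amount of epithelium, so the members were also set against 11 other epithelial genes (Epcam, Cdh1, Cldn3, Cldn4, Cldn7, Esrp1, Esrp2, Spint1, Spint2, Prss8 and Rab25). The mean log2 CPM of these genes was 5.78 ± 0.15 (SD, n = 3) in the glands, 6.59 ± 0.39 in B1/P, 7.53 ± 0.31 in B1/P/Rbf and 7.59 ± 0.33 in P/Rbf tumors (n = 5 each), and none of the 11 was at 0 in any sample. Their median log2 fold change was 0.66 in B1/P/Rbf and 0.97 in P/Rbf against B1/P, with 4 and 6 of 11 called higher and 0 lower, beside 7.36% and 8.43% of all genes called higher. Relative to that mean, Krt8 lay at 3.43 ± 0.02 in the glands, 3.28 ± 0.90 in P/Rbf, 1.84 ± 0.63 in B1/P/Rbf and 0.71 ± 2.01 in B1/P tumors. On this scale all B1/P/Rbf tumors (1.09 to 2.71) and all B1/P tumors (-2.51 to 2.93) were below all glands (3.41 to 3.44). Krt18 did likewise, with 3.15 to 3.45 in the glands, 1.67 to 2.77 in B1/P/Rbf and 0.96 to 2.23 in B1/P tumors. P/Rbf tumors spread around the glands for Krt8 (2.35 to 4.45) and Krt18 (1.74 to 4.86). On this scale the Krt18 ranges of both T121 models and the Krt8 range of P/Rbf tumors overlap those of B1/P tumors, which they did not in CPM. Krt7 of P/Rbf tumors (0.97 to 2.23) stayed above all B1/P tumors (-4.46 to 0.67), and Krt23 of B1/P/Rbf tumors (-11.05 to -7.44) stayed below all B1/P tumors (-3.97 to -0.73). Krt6a kept its position in the T121 models, with -4.01 to -3.27 in the glands and a mean of -0.08 ± 0.72 in B1/P/Rbf tumors. P/Rbf tumors (-2.74 to 2.6) also lay above the glands, while B1/P tumors (-5.98 to 3.35) spanned them. Krt14 of B1/P tumors (-0.23 to 3.26) stayed above the glands (-1.96 to -0.44), and P/Rbf tumors (-3.35 to 2.27) overlapped them. Krt17 of B1/P tumors (-2.02 to 2.45) and Krt15 of B1/P/Rbf tumors (-2.9 to 3.36) overlapped the glands, which they did not in CPM.

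**Figure D5:**
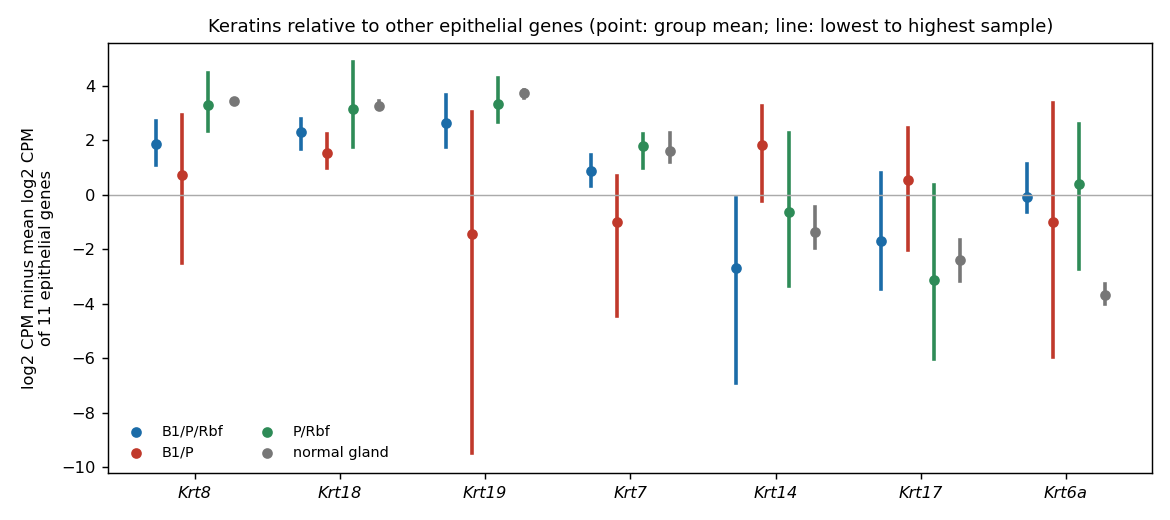
The vertical axis is the log2 CPM of a keratin minus the mean log2 CPM of 11 other epithelial genes, with a point for the group mean and a line from the lowest to the highest sample (n = 5, 5, 5 and 3). For Krt8 and Krt18 the B1/P/Rbf and B1/P tumors lie below the glands, and for Krt6a all T121 tumors lie above them.

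Markers of the other cells that carry basal keratins were read beside these values. Over 9 myoepithelial genes (Acta2, Myh11, Cnn1, Mylk, Oxtr, Trp63, Actg2, Lgals7 and Cxcl14) the mean log2 CPM was 4.53 to 5.37 in B1/P tumors, 1.29 to 4.19 in B1/P/Rbf, 2.05 to 3.83 in P/Rbf and 4.70 to 5.22 in the glands. Their summed level was 419.8 to 806.0 CPM, 65.5 to 338.5, 74.9 to 1954 and 366.9 to 480.7 CPM in the same order, and none of the 9 was at 0 in any sample. In B1/P/Rbf against B1/P 4 of 9 fell and 0 rose, beside 9.29% of all genes called lower, and in P/Rbf against B1/P 3 of 9 fell and 0 rose, beside 10.8%. B1/P tumor 225070, with no Krt5 count, had 419.8 CPM of these genes. Over the skin and hair follicle list, 144.6 CPM in B1/P tumor 246361 was the highest sum, with 69.7 CPM of Krt1 and 57.4 of Krt10, and the other 14 tumors had 3.20 to 36.5 CPM. Over 9 fibroblast genes, tumor 225070 had the highest sum of all samples, 12865 CPM. The part of these cells in the keratin results was not tested. Without tumor 246361 the counts of called keratins were 3 in B1/P/Rbf against B1/P, 4 in P/Rbf against B1/P and 3 in B1/P against glands. The shares of all genes called in these fits are not given here.

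Of 44 other keratins in the file, 22 were tested. B1/P/Rbf against B1/P had 4 of them called higher and 3 lower, beside 7.36% and 9.29% of all genes, and P/Rbf against B1/P had 3 higher and 5 lower, beside 8.43% and 10.8%. Their median log2 fold changes were -1.29 and -0.74, beside -0.06 and -0.05 over all genes. Krt79, a keratin of hair follicle openings and sebaceous ducts, was higher in all B1/P tumors than in all T121 tumors. It had 89.5, 7.20, 131.8, 119.9 and 298.9 CPM in B1/P tumors, 0.108 to 0.800 CPM in B1/P/Rbf and 0.647 to 4.95 CPM in P/Rbf tumors, and 3.71 to 4.22 CPM in the glands. Krt79 fell in B1/P/Rbf (log2 fold change -8.13, SE 0.95, adjusted p = 0.000129) and in P/Rbf tumors (-5.97, SE 0.86, adjusted p = 0.000485) against B1/P. Against the glands it fell in B1/P/Rbf (-3.08, SE 0.84, adjusted p = 0.00831) and rose in B1/P tumors (5.05, SE 1.03, adjusted p = 0.00124). Krt75, a hair follicle keratin, reached 111.0 CPM in B1/P tumor 225068 and had no counts in the 5 P/Rbf tumors (called lower, adjusted p = 0.0130), while B1/P tumor 225070 also had 0.0 CPM.

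Krt87 rose in both T121 models against B1/P, by 4.04 (SE 1.15, adjusted p = 0.0238) in B1/P/Rbf and 4.90 (SE 1.2, adjusted p = 0.0102) in P/Rbf. Krt4, a type II keratin of mucosal epithelium, rose in B1/P/Rbf against B1/P (4.78, SE 1.54, adjusted p = 0.0422), with 2.53 to 170.1 CPM against 0.0 to 9.96 CPM. In P/Rbf against B1/P, Krt80 rose (1.5, SE 0.49, adjusted p = 0.0400), and Krt1, a keratin of the upper epidermis, fell (-6.24, SE 1.92, adjusted p = 0.0315). Among B1/P tumors, 246361 had 69.7 CPM of Krt1 and the other 4 had 0.0 to 1.09 CPM. Krt16, the type I partner of keratin 6, was at 0.0 to 0.156 CPM in the glands and reached 155.7 CPM in B1/P tumor 246361 and 179.9 CPM in P/Rbf tumor 290860, the tumors with the highest Krt6a. It was called higher in all 3 models against the glands (adjusted p = 0.0279 in B1/P/Rbf, 0.0129 in B1/P and 0.00913 in P/Rbf). Krt80 was as well (log2 fold change 2.75, 2.61 and 4.11 in the same order). Krt6b had 269.7 CPM in tumor 246361. Krt6b, Krt10 and Krt78 were not called between models.

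Lists of genes that anchor keratins or share their setting are given beside the 16.7% of all genes called in B1/P/Rbf and the 19.2% called in P/Rbf against B1/P. Of 18 genes of desmosomes and keratin anchors, 2 rose and 3 fell in B1/P/Rbf against B1/P, and 1 rose and 2 fell in P/Rbf against B1/P. The median log2 fold changes were -0.03 and 0.09. Col17a1, the hemidesmosome collagen of basal cells, fell from 394.5 ± 240.2 CPM in B1/P to 9.46 ± 11.4 in B1/P/Rbf (-5.38, SE 1.38, adjusted p = 0.0144) and to 19.6 ± 23.8 CPM in P/Rbf (-4.33, SE 1.32, adjusted p = 0.0297). Dsc2, a desmosomal cadherin, rose in both (1.67 and 1.44, adjusted p = 0.0284 and 0.0486). Pkp2 rose (1.45, adjusted p = 0.0346) and Perp fell (-2.24, adjusted p = 0.0388) in B1/P/Rbf, and Itgb4, an integrin of hemidesmosomes, fell in P/Rbf (-1.03, adjusted p = 0.0131).

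Of 20 cornified envelope genes, 18 were tested, and 0 rose and 2 fell in B1/P/Rbf, and 1 rose and 3 fell in P/Rbf, against B1/P. The medians were -1.70 and -1.50. Calml3 fell in both (-5.81 and -3.63, adjusted p = 0.00189 and 0.0140), Tgm1 fell in B1/P/Rbf (-2.48, adjusted p = 0.0214), and Sprr1a rose in P/Rbf (3.71, adjusted p = 0.0333). Tgm3 fell in P/Rbf (-3.59, adjusted p = 0.0428), from a B1/P mean of 0.530 CPM.

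Of 15 epithelial transcription factors, 2 rose and 3 fell in B1/P/Rbf, and 3 rose and 3 fell in P/Rbf, against B1/P, with medians of -0.99 and 0.36. Sox10, a factor of basal-like and progenitor cells, fell from 427.2 ± 164.5 CPM in B1/P to 0.666 ± 1.16 in B1/P/Rbf (-9.35, SE 1.3, adjusted p = 0.000422) and to 0.448 ± 0.811 CPM in P/Rbf (-9.91, SE 1.34, adjusted p = 0.000313). Tfap2c fell in both (-5.97 and -6.03, adjusted p = 0.000363 and 0.000327) and Elf3, an epithelial ETS factor, rose in both (1.86 and 1.83, adjusted p = 0.00374 and 0.00412). Klf5 rose in B1/P/Rbf (1.65, adjusted p = 0.0325) and Tfap2a in P/Rbf (1.28, adjusted p = 0.00645).

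Among 12 intermediate filament genes other than keratins, 10 were tested. In B1/P/Rbf 1 rose and 2 fell, and in P/Rbf 2 rose and 2 fell, against B1/P, with medians of -0.29 and 0.70. Vim, the filament of mesenchymal cells, had 400.2, 703.4, 293.3, 469.9 and 298.4 CPM in B1/P tumors. It had 82.1 to 230.9 CPM in B1/P/Rbf and 81.7 to 235.5 CPM in P/Rbf tumors, all below all B1/P tumors and all glands (395.9 to 472.4 CPM). Vim fell in both against B1/P (-1.79 and -1.62, SE 0.34 for each, adjusted p = 0.00254 and 0.00439). The mean log2 CPM of the 9 fibroblast genes was 6.87 ± 0.72 in B1/P, 5.62 ± 1.01 in B1/P/Rbf and 5.41 ± 0.63 in P/Rbf tumors. The part of fibroblasts in the Vim values was not tested. Des, the muscle filament, fell in both as well (-1.76 and -1.45, adjusted p = 0.0118 and 0.0274), and the nuclear lamin Lmnb1 rose in both (1.17 and 1.02, adjusted p = 0.00831 and 0.0162). Lmna rose in P/Rbf (0.84, adjusted p = 0.0391).

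The genes whose pattern was most like a keratin were sought by Pearson's r of log2 CPM deviations from the group mean over the 18 samples, among 12590 genes that were tested and averaged at least 5 CPM, keratins left aside. All points come from the same libraries, and no p is given. For Krt5 they were Col17a1 (r = 0.964), Fat2 (0.948) and Sostdc1 (0.918), and without the 2 most distant samples these values were 0.928, 0.897 and 0.842. For Krt14 they were Dsg3, a desmosomal cadherin of basal cells (0.856), Hr (0.845) and Col17a1 (0.814). For Krt18 they were Dedd2 (0.909), Osbpl5 (0.874) and Ptms (0.870), with 0.823, 0.787 and 0.745 over the remaining 16 samples. For Krt8 they were Eps8l2 (0.847), Shkbp1 (0.843) and Rhpn2 (0.842), which dropped to 0.731, 0.489 and 0.535 without B1/P tumors 246361 and 248662. Within the family, Krt8 went with Krt19 at r = 0.93 and with Krt18 at 0.60, and without the 2 most distant samples these values were 0.60 and 0.71. Krt5 and Krt14 went together at r = 0.77 with and without the 2 most distant samples.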

How the data were processed

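RNA was measured in 15 mammary tumors of 3 models and 3 normal glands. Per the methods, the authors prepared stranded mRNA libraries, pooled the 18, sequenced them from both ends, trimmed the reads with Cutadapt 1.18 and counted them per gene with RSEM 1.3.0. The strand setting of the counting is not given in the sources used here. The deposited values are RSEM expected counts for 55450 genes, not normalized, and 5.61% of them are not whole numbers. The methods name a human reference, but all 55450 identifiers and symbols match GENCODE M21 for mouse (GRCm38), which gave the positions and transcript lengths used.

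Counts were rounded and tested in R 4.3.3 with edgeR 4.0.16 (quasi-likelihood F test, TMM, filterByExpr with a minimum count of 10, 4 groups in 1 fit), after preparation in Python 3.11.15. This left 19186 genes, over which p-values were adjusted (Benjamini-Hochberg). The fit was tested on simulated data, and the outcome is not reported here. Alternatives were DESeq2 1.42.0, limma 3.58.1 (voom with quantile normalization), no TMM, no filter, the study's filter (a log2 CPM minimum of 6, reached in 6 or more samples), the compared groups alone, a term for 2 sets of libraries and leaving out each sample. The sets are not in the labels but were inferred from the fold changes the study lists, and B1/P is the only group in both. Set 1 holds B1/P/Rbf and B1/P tumors 225068, 225070 and 246361.

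The 10 keratins, gene lists, markers and alternatives were chosen with earlier results of these data known. The genes named were the 10 members in 6 comparisons, other keratins averaging at least 5 CPM in a group, in each list other than the keratins the called genes with the 2 largest rises and 2 largest falls per T121 model against B1/P, the 3 genes most like Krt5, Krt14, Krt8 and Krt18, and Trp53, Brca1 and Vim. A gene of the epithelial marker list is not reported here, and values over that list were computed without it. Fold changes of genes at few counts depend on the prior count of the fit. Length-scaled levels use 1 principal transcript per gene, which for Krt7 is 4094 bases. No pair of replicates held identical counts.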

Additional observations from a re-analysis of the deposited data

Results flagged for a closer look

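Among 30 pairs of a member and a tumor model, 1 value stood apart from the other 4 of its group on the log2 scale. It was Krt5 in B1/P tumor 225070, with 0.0 CPM against 334.3 to 854.3 CPM in the other B1/P tumors, and its gap to the nearest tumor was 0.902 of the range of the group. Such a rule flags about 1 in 20 groups by chance, and how often a gap as wide as 0.902 would arise was not tested. The same tumor had 102.0 CPM of Krt14, 7.55 CPM of Krt23 and 7.20 CPM of Krt79, each the lowest of the B1/P tumors, and the highest Vim, 703.4 CPM.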

How the results depend on the processing

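Of 408 keratin fold changes recomputed with other tools, scalings, filters or terms, 363 kept their direction and their side of the threshold, 29 gained a call, 11 lost one and 5 changed sign. Of 540 with 1 sample left out, 499 kept both, 14 gained, 18 lost and 9 changed sign. None of the sign changes was in a called value. The number of keratins called in B1/P/Rbf against B1/P was 2, and 5 with DESeq2 or limma-voom. In P/Rbf against B1/P it was 3 (19.2% of all genes called), 5 with either tool (26.2% and 16.5%) and 1 with the library-set term (10.5%). Against glands, B1/P/Rbf had 2, 0 with limma-voom, 1 with the library-set term and 3 with DESeq2, without TMM or in the 2 groups alone, B1/P had 3, 2 with the library-set term (Krt17 lost) and 5 with DESeq2 or in the 2 groups alone, and P/Rbf had 3, 2 with limma-voom or the study's filter (Krt14 lost), 7 with DESeq2 and 5 in the 2 groups alone. Of all genes against glands DESeq2 called 41.8% in B1/P/Rbf, 39.1% in B1/P and 42.3% in P/Rbf, and limma-voom 40.1%, 36.6% and 38.7%. In the same order the main fit called 37.0%, 33.8% and 37.7%, and the library-set term 20.2%, 26.1% and 38.8%. Without TMM the shares were 41.7%, 39.4% and 41.1%, in the 2 groups alone 48.8%, 35.9% and 42.9%, and with the study's filter 38.7%, 35.2% and 36.7%. With single samples left out the counts were 2 to 4, 3 to 5, 0 to 0 (B1/P/Rbf against P/Rbf), 0 to 2, 0 to 4 and 2 to 3 in the order used in the report, without shares of all genes for those fits. The causes were not tested.

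Changes of sign were in Krt6a, B1/P/Rbf against B1/P (0.17, and -0.09 with the library-set term, -0.41 to 1.45 with samples left out), Krt19, B1/P/Rbf against P/Rbf (-0.75, and 1.75 with that term), Krt8, B1/P/Rbf against glands (0.31, and -0.01 with the study's filter), Krt5 and Krt23, P/Rbf against glands (1.59 and 0.44, and -1.39 and -0.78 with limma-voom). With samples left out, Krt15 in P/Rbf against B1/P ran from -3.56 to 1.57, Krt5 and Krt17 in B1/P/Rbf against P/Rbf from -3.50 to 2.04 and from -0.52 to 2.08, and Krt5 and Krt23 in P/Rbf against glands from -2.96 to 2.40 and from -2.0 to 0.84. The mean log2 ratio of Krt5 to Krt8 in B1/P ran from -2.57 without tumor 246361 to 1.98 without tumor 225070, where Krt5 of 225070 enters at the prior count, and that of Krt14 to Krt18 from -0.04 to 0.64 without the same tumors. Krt5 and Krt23 did not pass the study's filter. Without TMM, the median of all genes against glands moved from 0.12, 0.05 and 0.05 to 0.475, 0.419 and 0.327 in B1/P, B1/P/Rbf and P/Rbf tumors. No paired analysis was possible because the samples are different mice and the labels give no replicate numbers that groups share.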
